A study of Mus musculus with 35 samples.

Results

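Myrf, Sox8 and Nkx6-2 are 3 transcription factor genes of oligodendrocytes, the cells that wrap axons in myelin. They were taken by symbol from a table of 760 genes measured in the hippocampus of 35 mice aged 18 months, so all 3 of 3 were found. The assay was NanoString nCounter, in which fluorescent barcodes bound to each target RNA are counted, and each value is the log2 of a normalized barcode count, where a step of 1 is a doubling. Mice were labelled C57BL6/J, and 5 groups were compared. ADPolB_UA was 3xTgAD/PolB+/- with Urolithin A (6 mice, 4 female and 2 male). ADPolB_veh was 3xTgAD/PolB+/- with vehicle (7 mice, 3 female and 4 male). AD_UA was 3xTgAD with Urolithin A (7 mice, 3 female and 4 male). AD_veh was 3xTgAD with vehicle (8 mice, 4 female and 4 male). WT_veh was wild type with vehicle (7 mice, 4 female and 3 male). All 4 transgenic groups shared the alleles Tg(APPSwe,tauP301)L1Lfa and Psen1tm1Mpm, and the PolB+/- groups were also heterozygous for Polbtm1Rsky, an allele of the DNA polymerase beta gene. The APP and tau transgenes of 3xTgAD are driven by Thy1 regulatory elements, which act in neurons. Urolithin A, a gut microbial metabolite known to stimulate mitophagy, was dosed by gavage for 5 months (200 mg/kg/day). No wild-type mice received it, so its effect was measured only in transgenic mice. Mice are named here by group and label number.

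Myrf encodes a membrane-anchored factor that cleaves itself, after which the freed part enters the nucleus and activates myelin genes. Sox8 is an HMG-box factor of the SoxE group, to which Sox9 and Sox10 also belong, and it acts partly redundantly with Sox10 in oligodendrocyte differentiation. Nkx6-2, also known as Gtx, is a homeodomain factor of myelinating oligodendrocytes. In the adult mouse brain Myrf is needed to keep myelin gene expression up, so Myrf acts at the mature end of the lineage. Of the precursor markers listed, such as Pdgfra and Cspg4, none was among the genes measured, so precursors and mature cells were not measured apart.

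The promoter sequences of Sox8 and Nkx6-2 are shown for reference, and the promoter set used held none for Myrf. Whether they bear on the joint variation of the 3 genes across mice (below) was not tested. Both sequences are the 250 bases before the gene's start, from RefSeq on mouse build GRCm38.p6, read on the minus strand, 5′ to 3′. The Sox8 window is chr17:25570687-25570936 and the Nkx6-2 window is chr7:139582798-139583047. Capitals mark GC boxes (GGGCGG) in Sox8 and CCAAT boxes (CCAAT) in Nkx6-2.
Sox8: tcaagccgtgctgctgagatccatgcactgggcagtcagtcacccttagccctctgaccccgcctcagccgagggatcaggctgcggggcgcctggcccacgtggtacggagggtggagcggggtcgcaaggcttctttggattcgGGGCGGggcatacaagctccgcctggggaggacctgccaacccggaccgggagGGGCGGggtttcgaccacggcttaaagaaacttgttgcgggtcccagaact
Nkx6-2: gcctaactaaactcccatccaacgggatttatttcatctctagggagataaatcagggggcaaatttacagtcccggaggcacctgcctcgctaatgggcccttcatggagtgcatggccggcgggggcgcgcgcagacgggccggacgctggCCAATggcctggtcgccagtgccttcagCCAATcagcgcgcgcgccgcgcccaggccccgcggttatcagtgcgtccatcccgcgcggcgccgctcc

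Both windows were rich in G and C, at 65.6% for Sox8 and 65.2% for Nkx6-2, against a median of 52.4% over 32851 promoter windows of the same length. The Sox8 window held 2 GC boxes, which begin at -104 and -51 from the start, a motif present in 32.7% of all windows. The Nkx6-2 window held 2 CCAAT boxes, at -97 and -69, a motif in 33.8% of windows. Each window also held 1 E-box (CANNTG, in 66.2% of windows), and Nkx6-2 held 1 TAAT homeodomain core at -158 (54.9% of windows). Both strands were searched, and TAAT is contained in TAATTA. No match was found in either window for a MYRF core (CTGGCAC, 4.19% of windows), the SOX cores ACAAAG (16.5%) and AACAAT (9.42%), the NKX6 core TAATTA (4.84%) or TATAAA (12.4%). Myrf lies on chromosome 19, Sox8 on chromosome 17 and Nkx6-2 on chromosome 7.

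Myrf had the widest spread of the 3 genes. Its lowest, median and highest values were 8.68, 9.245 and 10.53 in ADPolB_UA, 8.91, 9.89 and 10.24 in ADPolB_veh, and 8.46, 9.02 and 9.80 in AD_UA. They were 8.50, 9.235 and 10.98 in AD_veh, against 7.51, 8.92 and 9.97 in WT_veh. The lowest mouse of all was WT_veh 6, and the highest was AD_veh 2. Every pair of groups overlapped, although all 7 ADPolB_veh mice lay above the WT_veh mean and 3 of them above the highest WT_veh mouse. Group means were 9.34 ± 0.69 in ADPolB_UA, 9.71 ± 0.49 in ADPolB_veh, 9.03 ± 0.50 in AD_UA, 9.46 ± 0.76 in AD_veh and 8.82 ± 0.93 in WT_veh (SD, n = 6, 7, 7, 8 and 7). In order of mean level, ADPolB_veh was followed by AD_veh, ADPolB_UA, AD_UA and WT_veh.

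Sox8 lay in a narrower band. Its lowest, median and highest values were 9.15, 9.395 and 10.01 in ADPolB_UA, 9.21, 9.51 and 9.81 in ADPolB_veh, and 8.87, 9.34 and 9.52 in AD_UA. In AD_veh they were 9.10, 9.52 and 10.70, against 8.96, 9.25 and 9.65 in WT_veh. AD_veh 2 was again the highest mouse, far above the second of its group, AD_veh 7, at 9.80. The means were 9.45 ± 0.31 in ADPolB_UA, 9.56 ± 0.21 in ADPolB_veh, 9.28 ± 0.24 in AD_UA, 9.63 ± 0.47 in AD_veh and 9.31 ± 0.25 in WT_veh (SD, n = 6, 7, 7, 8 and 7). AD_veh had the highest mean, then ADPolB_veh, ADPolB_UA, WT_veh and AD_UA, and every pair of groups overlapped.

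Nkx6-2 had the lowest numbers of the 3, and these cannot be set against the other genes' numbers as amounts of RNA, since each probe has its own efficiency. The lowest, median and highest values were 5.23, 6.265 and 7.31 in ADPolB_UA, 5.91, 6.42 and 7.06 in ADPolB_veh, and 5.44, 5.77 and 6.78 in AD_UA. In AD_veh they were 5.33, 6.00 and 7.39, against 4.37, 5.67 and 6.41 in WT_veh. WT_veh 1 and WT_veh 2, at 4.69 and 4.37, were the lowest of the 35 mice, and all 7 ADPolB_veh mice exceeded the WT_veh mean, 4 of them the highest WT_veh mouse. Means were 6.30 ± 0.79 in ADPolB_UA, 6.43 ± 0.47 in ADPolB_veh, 5.92 ± 0.47 in AD_UA, 6.15 ± 0.70 in AD_veh and 5.49 ± 0.79 in WT_veh (SD, n = 6, 7, 7, 8 and 7). By mean, the order was ADPolB_veh, ADPolB_UA, AD_veh, AD_UA and WT_veh.

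**Figure D1:**
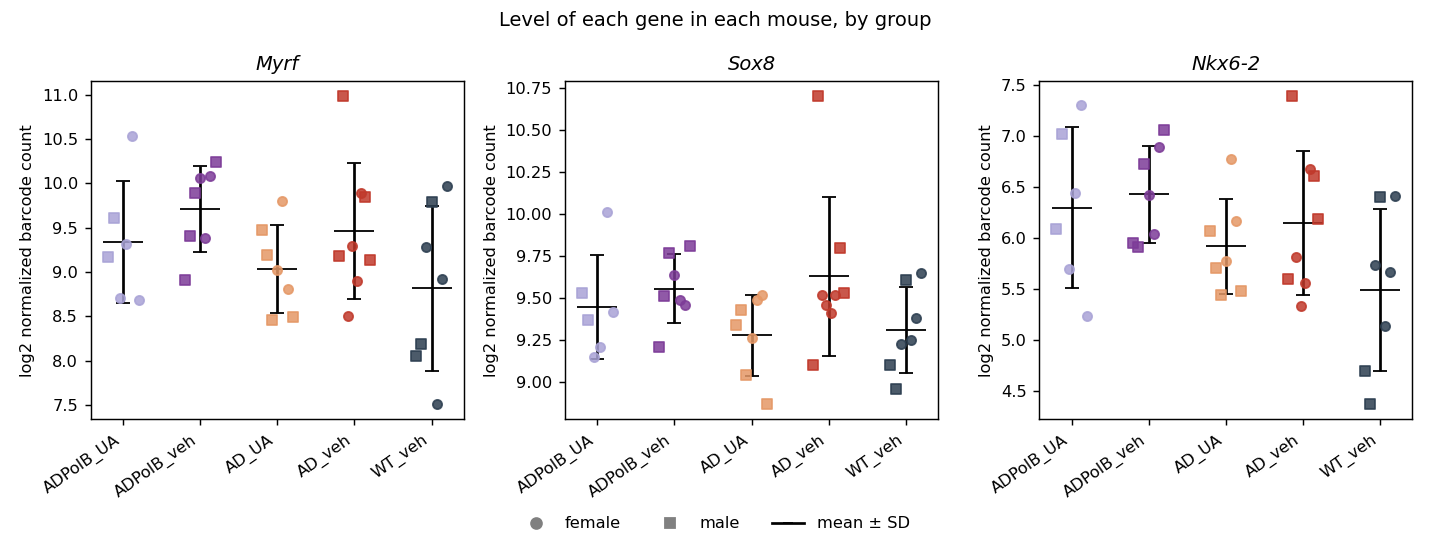
Level of Myrf, Sox8 and Nkx6-2 (log2 normalized barcode count, vertical axes) in each of 35 mice by group; circles are females, squares are males, and the black line and bars give the mean ± SD. The groups overlap in every panel, AD_veh 2 is the highest point of all 3, and the WT_veh mice reach lowest for Myrf (7.51) and Nkx6-2 (4.37).

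The first question was whether the genotypes differed under vehicle. In ADPolB_veh against WT_veh, Myrf differed by 0.89 (SE 0.37, 95% interval 0.15 to 1.64, 1.86-fold) and Nkx6-2 by 0.95 (SE 0.35, 0.24 to 1.65, 1.93-fold). The Nkx6-2 difference was the 9th largest in size among 760 genes. Neither passed limma's test after Benjamini-Hochberg adjustment over all genes (unadjusted p = 0.0205 and 0.0101, adjusted p = 0.180 and 0.178). Sox8 differed by 0.24 (SE 0.17, -0.10 to 0.59, adjusted p = 0.330). Thus 0 of 3 passed, where 0% of all genes did, and 2 of 3 were higher at an unadjusted p below 0.05, where 20.7% of all genes were. With mice weighted by their estimated variability (limma's array weights), all 3 passed, at 1.40 for Myrf (adjusted p = 7.13e-05), 1.51 for Nkx6-2 (7.13e-05) and 0.47 for Sox8 (0.000614), but so did 58% of all genes (441 of 760). Over all settings the adjusted p ran from 7.13e-05 to 0.821 for Myrf, from 7.13e-05 to 0.765 for Nkx6-2 and from 0.000614 to 0.960 for Sox8. The size of the Nkx6-2 difference depended on its low values. With 20 added to each count before the log2 (a pseudocount), it fell from 0.95 to 0.68, and that of Myrf from 0.89 to 0.85.

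In AD_veh against WT_veh the differences were smaller for Myrf and Nkx6-2. Myrf differed by 0.65 (SE 0.35, 95% interval -0.07 to 1.37), Nkx6-2 by 0.66 (SE 0.33, -0.02 to 1.34) and Sox8 by 0.32 (SE 0.16, -0.02 to 0.65), and the adjusted p from limma was 0.588 for each. Of the 3 genes 0 passed, against 0.132% of all genes, and 0 of 3 had an unadjusted p below 0.05, against 6.58%. These folds were 1.57, 1.58 and 1.25 for Myrf, Nkx6-2 and Sox8. For each gene 7 of 8 AD_veh mice exceeded the mean of WT_veh. Without the 3 mice of highest striatal marker level (described below), the differences were 0.43, 0.48 and 0.17 for Myrf, Nkx6-2 and Sox8. Without AD_veh 2 alone, Myrf differed by 0.43 and Sox8 by 0.17, and without WT_veh 6 Myrf also differed by 0.43.

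The loss of 1 Polb copy was compared within vehicle-treated 3xTgAD mice. ADPolB_veh differed from AD_veh by 0.24 for Myrf (SE 0.35, 95% interval -0.47 to 0.96), by 0.28 for Nkx6-2 (SE 0.33, -0.40 to 0.97) and by -0.07 for Sox8 (SE 0.16, -0.41 to 0.26). By limma 0 of 3 passed, where 0% of all genes did, with adjusted p from 0.904 to 0.929, and 0 of 3 had an unadjusted p below 0.05, where 4.34% of all genes had. For each gene the interval includes the difference of ADPolB_veh from WT_veh, so the intervals do not show that the genotypes had equal levels. Leaving out 1 mouse at a time, the difference ran from 0.11 (without AD_veh 3) to 0.48 (without AD_veh 2) for Myrf, from 0.17 (without AD_veh 4) to 0.48 (without AD_veh 2) for Nkx6-2 and from -0.16 (without AD_veh 1) to 0.09 (without AD_veh 2) for Sox8. With estimated weights, under which AD_veh 2 counted for little (weight 0.107), it was 0.70 for Myrf and 0.81 for Nkx6-2 (adjusted p = 0.0340 and 0.0268, limma, over all settings 0.0340 to 0.999 and 0.0268 to 0.999), where 27.5% of all genes passed, and 0.18 for Sox8 (adjusted p = 0.214).

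Urolithin A was compared with vehicle within each transgenic genotype, and all 3 genes had lower means in the treated mice of both, with 0 of 3 passing in either. In AD_UA against AD_veh, Sox8 differed by -0.35 (SE 0.16, 95% interval -0.69 to -0.02, 0.784-fold), Myrf by -0.43 (SE 0.35, -1.15 to 0.29) and Nkx6-2 by -0.23 (SE 0.33, -0.91 to 0.45). All 7 AD_UA mice had less Sox8 than the AD_veh mean, and 2 lay below the lowest AD_veh mouse. The adjusted p from limma was 0.483 for Sox8 (unadjusted p = 0.0400), 0.687 for Myrf and 0.855 for Nkx6-2. The share of all genes that passed was 0%, and 1 of 3 members was lower at an unadjusted p below 0.05, against 5.39% of all genes. AD_veh 2 weighed on this comparison: without it the difference was -0.19 for Sox8, -0.20 for Myrf and -0.03 for Nkx6-2. Without AD_UA 6, in contrast, Nkx6-2 differed by -0.38 and Myrf by -0.57. With estimated weights the difference was -0.07 for Sox8 (adjusted p = 0.794), 0.05 for Myrf and 0.25 for Nkx6-2.

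In ADPolB_UA against ADPolB_veh, the differences were -0.37 for Myrf (SE 0.38, 95% interval -1.15 to 0.41), -0.14 for Nkx6-2 (SE 0.36, -0.88 to 0.60) and -0.11 for Sox8 (SE 0.18, -0.47 to 0.26). The adjusted p from limma ran from 0.953 to 0.977, 0% of all genes passed, and 0 of 3 members had an unadjusted p below 0.05, where 5.66% of all genes had. One treated mouse, ADPolB_UA 5, was higher than every ADPolB_veh mouse in all 3 genes. Without ADPolB_UA 5 the difference was -0.60 for Myrf, -0.33 for Nkx6-2 and -0.22 for Sox8. Without ADPolB_UA 6, the lowest of its group for Nkx6-2, that gene differed by 0.07 and Myrf by -0.25, and without ADPolB_UA 3 Sox8 differed by -0.05. The interaction, which asks whether the treatment difference itself differed with Polb genotype, was 0.06 for Myrf, 0.09 for Nkx6-2 and 0.24 for Sox8 (SE 0.52, 0.49 and 0.24, adjusted p from limma 0.994 for each). Its calls numbered 0 of 3, against 0% of all genes, and at an unadjusted p below 0.05 they were 0 of 3, against 3.82%.

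**Figure D2:**
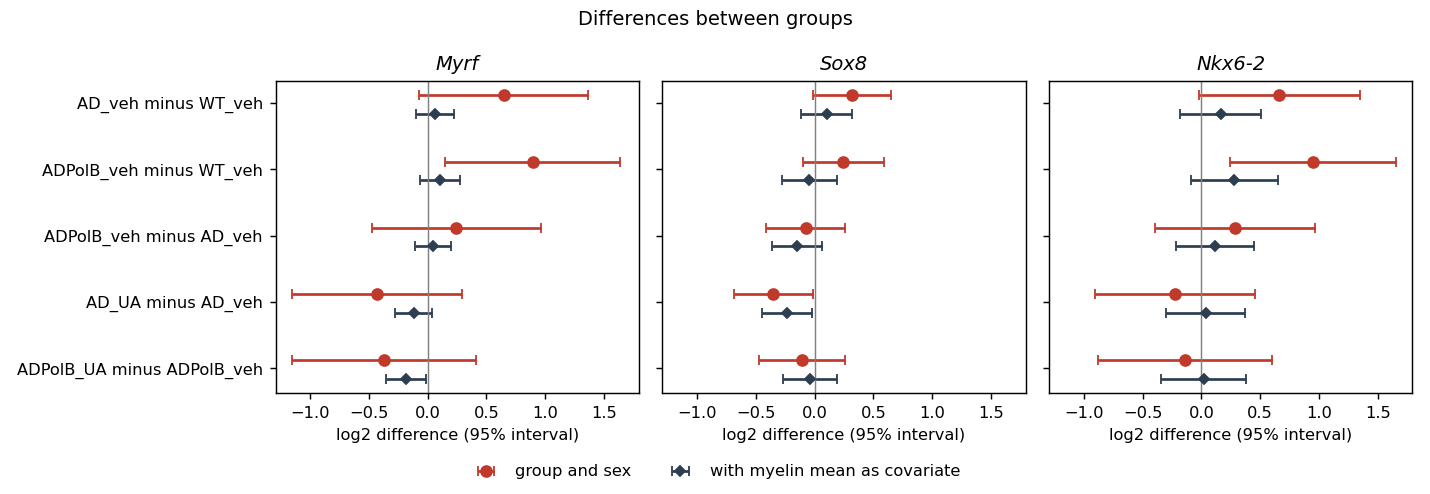
Difference of Myrf, Sox8 and Nkx6-2 in 5 comparisons of groups (log2, horizontal axes, the first-named group minus the second) with 95% intervals from limma; circles are the fit with group and sex, and diamonds add the mean of 12 myelin genes as a covariate. The largest differences are 0.89 for Myrf and 0.95 for Nkx6-2 in ADPolB_veh minus WT_veh, and with the covariate these are 0.11 and 0.28.

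The treated groups were also set against WT_veh. ADPolB_UA differed from WT_veh by 0.81 for Nkx6-2 (SE 0.36, 1.75-fold, unadjusted p = 0.0317, adjusted p = 0.463 from limma), by 0.52 for Myrf and by 0.14 for Sox8. Here 0 of 3 passed, against 0.132% of all genes, and 1 of 3 was higher at an unadjusted p below 0.05, against 7.63%. AD_UA differed from WT_veh by 0.44 for Nkx6-2, 0.22 for Myrf and -0.03 for Sox8, with 0 of 3 passing where 0.132% of all genes did, and 0 of 3 at an unadjusted p below 0.05 where 5.39% were. ADPolB_UA differed from AD_UA by 0.37, 0.30 and 0.17 for Nkx6-2, Myrf and Sox8, with 0 of 3 passing where 0% of all genes did, and 0 of 3 at an unadjusted p below 0.05 where 12.6% were. ADPolB_UA minus AD_veh, the remaining pair of neighbours in the orders above, was -0.13 for Myrf, 0.15 for Nkx6-2 and -0.18 for Sox8, with 0 of 3 passing where 0% of all genes did, and 0 of 3 at an unadjusted p below 0.05 where 9.34% were. Single mice moved these values. Without ADPolB_UA 5, ADPolB_UA differed from WT_veh by 0.28 for Myrf and 0.03 for Sox8, and from AD_UA by 0.07 for Myrf, 0.18 for Nkx6-2 and 0.06 for Sox8. AD_UA minus WT_veh ran from 0.0062 (without WT_veh 6) to 0.41 (without WT_veh 8) for Myrf, from 0.23 (without WT_veh 2) to 0.61 (without WT_veh 5) for Nkx6-2 and from -0.098 (without WT_veh 2) to 0.034 (without AD_UA 8) for Sox8. ADPolB_UA minus AD_veh ran from -0.36 to 0.08 for Myrf and from -0.05 to 0.36 for Nkx6-2. With estimated weights Myrf and Nkx6-2 passed against WT_veh, at 0.80 and 1.26 in ADPolB_UA (adjusted p = 0.0167 and 0.00298) and at 0.75 and 0.94 in AD_UA (adjusted p = 0.0295 and 0.0180), where over all settings the adjusted p reached 0.955, 0.911, 0.997 and 0.990 in the same order. With those weights 37.5% of all genes passed in ADPolB_UA minus WT_veh and 17.6% in AD_UA minus WT_veh. No pair of neighbouring groups in the order of any of the 3 genes therefore differed beyond the spread between mice by limma with mice weighted equally. Comparisons that name the same group share its mice, so they are not independent of each other.

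Females and males had nearly equal means. The difference of females from males over the 5 groups was -0.01 for Myrf, 0.04 for Nkx6-2 and 0.00 for Sox8 (SE 0.23, 0.22 and 0.11), with 0 of 3 passing in limma where 0% of all genes did, and 0 of 3 at an unadjusted p below 0.05 where 8.55% were. The spread of Sox8 was wider in males, with an SD of 0.20 in 18 females and 0.43 in 17 males, and the male group holds AD_veh 2. In 5 comparisons of 3 genes, 0 of 15 differences between the sexes' effects passed by limma. The smallest unadjusted p was 0.0832, for Nkx6-2 in AD_veh against WT_veh, where the difference was smaller in females than in males by 1.19 on the log2 scale (the sign is female minus male). Its means there were 5.85 in 4 female and 6.45 in 4 male AD_veh mice, against 5.74 in 4 female and 5.15 in 3 male WT_veh mice.

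The 3 genes varied together across mice, and Myrf and Nkx6-2 varied more than most genes. With group and sex removed, the SD between mice was 0.71 for Myrf, the 32nd largest of 760 genes, 0.67 for Nkx6-2, the 42nd, and 0.32 for Sox8, the 295th, against 0.27 for the median gene. In the values as deposited, with group and sex not removed, the lowest and highest mouse lay 11.1-fold apart for Myrf, 8.11-fold for Nkx6-2 and 3.56-fold for Sox8. Across 35 mice Pearson's r was 0.884 for Myrf with Nkx6-2 (Spearman's rho 0.868), 0.778 for Myrf with Sox8 (rho 0.725) and 0.735 for Nkx6-2 with Sox8 (rho 0.721). Each had a permutation p of 1e-05, the smallest that 100000 permutations can give, and the same after adjustment over 6 relations. Without the 2 mice farthest from the median of the first-named gene, r was 0.881, 0.778 and 0.705 in that order of pairs, and it was 0.871, 0.759 and 0.745 once group and sex were removed. Within groups r ran from 0.827 in AD_UA to 0.930 in ADPolB_UA for Myrf with Nkx6-2, from 0.716 in AD_UA to 0.823 in AD_veh for Myrf with Sox8, and from 0.551 in ADPolB_UA to 0.959 in WT_veh for Nkx6-2 with Sox8. For Myrf with Sox8 it was 0.645 in females and 0.909 in males. Values of 1 mouse share its normalization, and with each mouse centred on its median the pooled r was 0.838, 0.574 and 0.530 in the same order of pairs.

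The myelin genes, on which Myrf is known to act, moved with all 3. Over 12 measured genes of compact myelin and the sheath, the mean log2 level of a mouse correlated with Myrf at r = 0.979 (rho 0.966), with Nkx6-2 at 0.897 (rho 0.891) and with Sox8 at 0.793 (rho 0.761), each with permutation p and adjusted p of 1e-05 over 35 mice. Without the 2 mice farthest from the median of the myelin mean, these were 0.971, 0.889 and 0.795. With each mouse centred on its median they were 0.970, 0.856 and 0.588, and with quantile normalization 0.977, 0.818 and 0.579. Sox8 thus lost the most. Within groups, r ran from 0.973 to 0.994 for Myrf, from 0.835 to 0.917 for Nkx6-2 and from 0.804 to 0.857 for Sox8. The slopes differed: per step of 1 in the myelin mean, Myrf stepped by 0.96 (SE 0.036), Nkx6-2 by 0.82 (SE 0.083) and Sox8 by 0.35 (SE 0.052), with group and sex in the fit. The myelin mean took up 96.1% of the variance between mice of Myrf that group and sex left, 77.3% of that of Nkx6-2 and 62.5% of that of Sox8. These slopes and shares are of values not centred by mouse. In bulk tissue, fewer oligodendrocytes and less RNA per oligodendrocyte cannot be told apart.

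**Figure D3:**
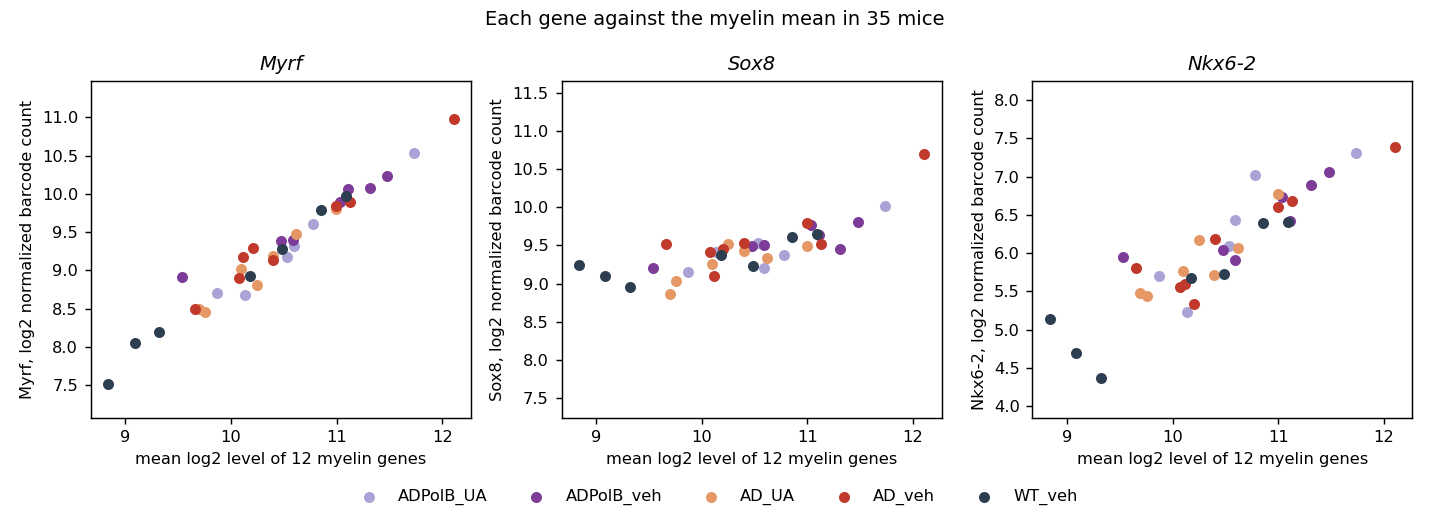
Level of Myrf, Sox8 and Nkx6-2 (log2 normalized barcode count, vertical axes of equal length) against the mean log2 level of 12 myelin genes (horizontal axes) in 35 mice, coloured by group. Myrf lies close to a line (r = 0.979), Nkx6-2 scatters more (0.897), and Sox8 climbs less steeply (slope 0.35 per step of 1, against 0.96 for Myrf).

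Since these genes moved with the myelin genes, each gene minus the myelin mean was compared between groups as well, by an exact permutation test of mice within sex, two-sided. Of 15 tests (5 comparisons of 3 genes) 0 passed after adjustment, with adjusted p of 0.805 or more, and 0 had an unadjusted p below 0.05. The smallest unadjusted p was 0.0914, for Sox8 in ADPolB_veh against WT_veh, where Sox8 minus the myelin mean was -1.23 ± 0.51 in ADPolB_veh and -0.67 ± 0.71 in WT_veh (SD, n = 7 each, exact permutation). For Myrf in the same comparison it was -1.08 ± 0.21 in ADPolB_veh and -1.16 ± 0.10 in WT_veh (SD, n = 7 each), a difference adjusted for sex of 0.06 (exact permutation p = 0.572). Nkx6-2 minus the myelin mean was -4.36 ± 0.37 in ADPolB_veh and -4.49 ± 0.40 in WT_veh, a difference of 0.12 (exact permutation p = 0.569). The myelin mean itself was 10.79 ± 0.66 in ADPolB_veh and 9.98 ± 0.90 in WT_veh (SD, n = 7 each). Subtraction takes a slope of 1 on the myelin mean, whereas the slope of Sox8 was 0.35. For Sox8 the subtracted value therefore also carries the myelin difference, with its sign turned. In limma with the myelin mean as a covariate, which fits the slope, the same comparison gave 0.11 for Myrf, 0.28 for Nkx6-2 and -0.05 for Sox8.

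All 12 myelin genes were higher in ADPolB_veh than in WT_veh, with a median difference of 0.85, against 0.09 over all genes, of which 467 of 760 were higher. In AD_veh against WT_veh all 12 were higher too, with a median of 0.61, against 0.04 over all genes. Mbp, a structural protein of compact myelin, was 0.96 higher in ADPolB_veh than in WT_veh (SE 0.37, adjusted p = 0.180), and 0.76 higher in AD_veh than in WT_veh (SE 0.36, adjusted p = 0.588, limma). In ADPolB_veh against WT_veh the differences were 0.92 for Mag, an adhesion protein of the inner sheath, 0.86 for Mog, a protein of the outer sheath, 0.84 for Mobp, a protein of compact myelin, 0.69 for Cnp, an enzyme of the cytoplasmic channels, and 0.42 for Ugt8a, which makes galactosylceramide. None of these named genes passed (adjusted p from 0.180 to 0.459). Of the 12 genes of the list 7 had an unadjusted p below 0.05, against 25.8% of all genes. With Urolithin A, 0 of 12 were higher in AD_UA than in AD_veh (median -0.32, against -0.05 over all genes), and 1 of 12 was higher in ADPolB_UA than in ADPolB_veh (median -0.23, against -0.01). The median mouse, however, had a myelin mean of 10.25 in AD_UA and 10.30 in AD_veh. AD_veh 2 had the highest myelin mean of all mice, 12.11, and AD_UA 8 and AD_UA 3 had low ones, 9.69 and 9.76. These are the 3 mice of highest striatal marker level (described below).

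Other transcription regulators of the lineage were less uniform. Of the list, 7 were measured, and 0 passed by limma in ADPolB_veh against WT_veh, where 0% of all genes passed. At an unadjusted p below 0.05, 3 of the 7 were higher, against 20.7% of all genes, and 1 was lower, against 39 of 760. Zeb2, which promotes oligodendrocyte maturation but is also expressed in other brain cells, differed by 0.64 (SE 0.21), Zfp536, a zinc finger repressor, by 0.48 (SE 0.18) and Sox9, the SoxE gene of astrocytes and precursors, by 0.44 (SE 0.16), each with an adjusted p of 0.178. St18, a zinc finger gene related to Myt1, differed by 0.59 (adjusted p = 0.313). Thrb, the thyroid hormone receptor beta, differed by -0.44 (adjusted p = 0.180) and Sox5, a SoxD gene that modulates SoxE factors, by -0.28 (adjusted p = 0.342). The list's median in that comparison was 0.44, and in AD_veh against WT_veh it was 0.06. Across mice, with group and sex removed, Zfp536 followed Myrf at r = 0.909, Nkx6-2 at 0.822 and Sox8 at 0.681. Sox5 ran opposite to all 3, with r = -0.697 for Myrf, -0.802 for Nkx6-2 and -0.709 for Sox8. These r values are descriptions over 35 mice, given with no test.

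By the same measure, the genes most like each member among the other 759 were found. Those of Myrf were Tmem63a (r = 0.979), an ion channel gene, Prr5l (0.978), whose protein binds the mTORC2 kinase complex, Mbp (0.977), Cnp (0.974) and Gpr37 (0.974), a receptor gene of oligodendrocytes. Nkx6-2 was most like Tprn (0.913), Elovl1 (0.911), a fatty acid elongase gene, Cers2 (0.908), a ceramide synthase gene, Mog (0.906) and Tmbim1 (0.901). Sox8 had lower maxima and a different set, namely Rnf13 (0.863), a ubiquitin ligase gene, Cmtm5 (0.860), Nmral1 (0.859), Vamp3 (0.854), a vesicle fusion gene, and Gpr62 (0.846). The median r to all 759 genes was 0.287 for Myrf, 0.247 for Nkx6-2 and 0.257 for Sox8, while 127, 83 and 19 genes, in that order, exceeded 0.8. Seen from Myrf, Nkx6-2 ranked 85th and Sox8 159th of 759. Seen from Nkx6-2, Myrf ranked 22nd and Sox8 125th, and seen from Sox8, Myrf ranked 59th and Nkx6-2 71st.

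Markers of other cells moved with these genes as well. The mean of 10 neuron genes was lowest in the mouse with the most Myrf, at 10.43 in AD_veh 2, and was 11.78 in the mouse with the least, WT_veh 6. All 10 neuron genes were lower in ADPolB_veh than in WT_veh and all 10 in AD_veh than in WT_veh, with medians of -0.21 in both. The neuron mean ranged from 11.02 to 11.97 in ADPolB_UA, 10.91 to 11.55 in ADPolB_veh, 11.31 to 11.80 in AD_UA, 10.43 to 11.65 in AD_veh and 11.11 to 11.78 in WT_veh. Of 7 microglia genes, 6 were higher in ADPolB_veh than in WT_veh (median 0.78) and 7 in AD_veh than in WT_veh (median 0.37), and the microglia mean ranged from 7.85 to 10.70 in ADPolB_veh and from 8.55 to 10.60 in AD_veh, against 8.32 to 9.77 in WT_veh. Of all 760 genes, 467 were higher and 293 lower in ADPolB_veh than in WT_veh, and 462 were higher and 298 lower in AD_veh. The 2 astrocyte genes measured were higher than in WT_veh in ADPolB_veh (median 0.18) and in AD_veh (median 0.21). The part of these other cells in the differences of Myrf, Sox8 and Nkx6-2 was not tested.

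Adora2a and Pde1b, genes of the striatum, were the only members measured of a list of striatal markers. Their mean was 10.56 in AD_veh 2, 9.42 in AD_UA 3 and 8.43 in AD_UA 8, against a median of 5.885 over all mice. The next highest was ADPolB_UA 6, at 7.57, which had the least Myrf (8.68) and Nkx6-2 (5.23) of its group. Without ADPolB_UA 6, Nkx6-2 in ADPolB_UA minus ADPolB_veh was 0.07. AD_veh 2 was highest of 35 in Myrf, Sox8, Nkx6-2 and the myelin mean (12.11), whereas AD_UA 3 and AD_UA 8 had the least Myrf of their group, at 8.46 and 8.49. Without AD_veh 2, AD_UA 3 and AD_UA 8, AD_UA differed from AD_veh by 0.01 for Myrf, 0.13 for Nkx6-2 and -0.07 for Sox8. This setting, chosen after seeing the data, takes out the highest AD_veh mouse and the 2 lowest AD_UA mice for each gene. These differences therefore had to move up, and the cause of the lower means under Urolithin A was not tested. The differences of ADPolB_veh from WT_veh, which hold none of the 3 mice, were then 0.90 for Myrf, 0.95 for Nkx6-2 and 0.25 for Sox8 (adjusted p = 0.102, 0.102 and 0.158, limma, with the sex term and the spread estimated from the remaining mice).

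**Figure D4:**
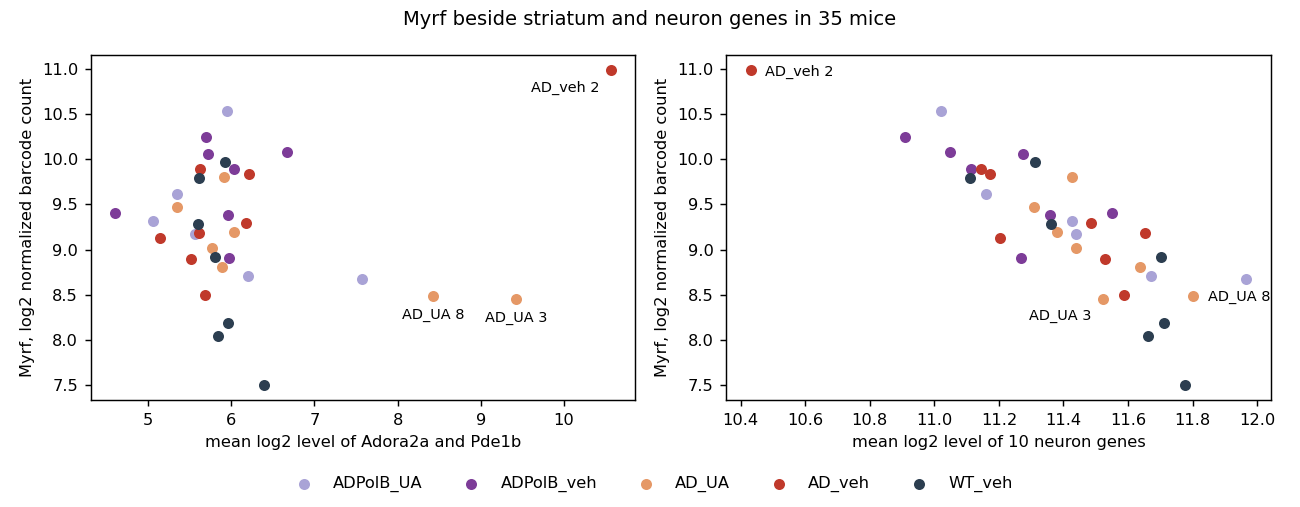
Level of Myrf (log2 normalized barcode count, vertical axes) in 35 mice against the mean log2 level of the striatal genes Adora2a and Pde1b (left) and of 10 neuron genes (right), coloured by group, with 3 mice named. AD_veh 2 stands apart with a striatal mean of 10.56, a neuron mean of 10.43 and the highest Myrf, 10.98, while AD_UA 3 and AD_UA 8 combine striatal means of 9.42 and 8.43 with low Myrf.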

How the data were processed

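Myrf, Sox8 and Nkx6-2 and the gene lists were chosen with earlier results of these data known. The deposited table holds log2 values, normalized by the authors and deposited as such, of 760 genes in 35 hippocampi, from RNA of 5 mg tissue per the labels' protocols. The submitters worked on the Rosalind platform, per the series text. The normalizing genes and background treatment are not stated there, and with no raw counts the depth is unknown. Sample medians ran from 8.60 to 9.12. Values were used with no filter or pseudocount. Each gene was fitted in limma 3.58.1 (R 4.3.3) with group and sex as terms over all mice, and p-values were adjusted by Benjamini-Hochberg over 760 genes at a threshold of 0.05. Exact permutations and correlations used SciPy 1.17.1. The script was tested on simulated data. P-values measure the spread between mice as labelled. Named genes were the 3 members, the 5 most correlated with each, the measured lineage regulators (the 6 of smallest p in ADPolB_veh minus WT_veh) and 6 myelin genes. Other settings were median centring, quantile normalization, a pseudocount of 20, leaving out the dimmest 25% of genes, no sex term, other moderation, estimated mouse weights, only the groups compared, a replicate block, the myelin mean as covariate, and leaving out mice. Same-numbered mice did not deviate together (median r -0.12 over 62 pairs, 20 of them above 0.1, and 16 pairs of opposite sex), so numbers were not taken as pairs. The level of Polb itself was not analysed here, and 1 gene of the rule for named genes, not one of the 3 members, is not reported here.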

Additional observations from a re-analysis of the deposited data

Results flagged for a closer look

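One value stood far from the rest of its group. Sox8 was 10.7 in AD_veh 2, while the next mouse of that group, AD_veh 7, had 9.80, and this gap exceeded Dixon's limit for 8 samples. It was 1 of 15 groups of values tested (3 genes in 5 groups), and chance alone flags about 1 in 20. The same mouse had the highest Myrf, Nkx6-2, myelin mean and striatal marker mean of all 35 mice, and the lowest neuron mean.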

How the results depend on the processing

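Estimated weights of mice changed most. They gave AD_veh 2 a weight of 0.107 and AD_UA 2 one of 4.97, and called 441 genes in ADPolB_veh minus WT_veh, where the equal-weight fit called 0, and 209, 2, 20, 134, 285, 24 and 113 genes in ADPolB_veh minus AD_veh, AD_UA minus AD_veh, ADPolB_UA minus ADPolB_veh, AD_UA minus WT_veh, ADPolB_UA minus WT_veh, ADPolB_UA minus AD_UA and ADPolB_UA minus AD_veh. The members then passed in ADPolB_veh minus WT_veh (Myrf 1.40, Nkx6-2 1.51 and Sox8 0.47), ADPolB_veh minus AD_veh (Myrf 0.70, Nkx6-2 0.81), AD_UA minus WT_veh (Myrf 0.75, Nkx6-2 0.94) and ADPolB_UA minus WT_veh (Myrf 0.80, Nkx6-2 1.26). Reversed there were Sox8 in ADPolB_veh minus AD_veh (0.18), AD_UA minus WT_veh (0.22) and ADPolB_UA minus AD_UA (-0.018), Myrf (0.053) and Nkx6-2 (0.25) in AD_UA minus AD_veh, Myrf in ADPolB_UA minus AD_veh (0.098) and between the sexes (0.16), and the interaction (Myrf -0.66, Nkx6-2 -0.50, Sox8 -0.20). Of the WT_veh mice, WT_veh 1 and WT_veh 2 had weights of 3.14 and 3.04, with Myrf at 8.05 and 8.19. WT_veh 7 had 1.70 (Myrf 8.92), WT_veh 3 had 0.747 (9.28) and WT_veh 6 had 0.616 (7.51). WT_veh 8 and WT_veh 5 had weights of 0.5205 and 0.313, with Myrf at 9.97 and 9.79. The cause of the changes under weighting was not tested. No other setting made a member pass, and leaving out any 1 mouse made none pass.

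With the myelin mean as a covariate, signs turned for Sox8 in ADPolB_veh minus WT_veh (-0.045), Nkx6-2 in AD_UA minus AD_veh (0.038) and in ADPolB_UA minus ADPolB_veh (0.0196), Myrf in AD_UA minus WT_veh (-0.057), Myrf (-0.078) and Sox8 (-0.084) in ADPolB_UA minus WT_veh, Myrf in ADPolB_UA minus AD_UA (-0.021), the interaction (Myrf -0.066, Nkx6-2 -0.019) and females minus males (Nkx6-2 -0.00077, Sox8 -0.016). Without the 3 mice of high striatal markers, a setting chosen after seeing the data, signs turned for Sox8 in ADPolB_veh minus AD_veh (0.083) and AD_UA minus WT_veh (0.096), Myrf (0.0103) and Nkx6-2 (0.13) in AD_UA minus AD_veh, Myrf in ADPolB_UA minus AD_veh (0.088), the interaction (Myrf -0.39, Nkx6-2 -0.27, Sox8 -0.0446) and Myrf between the sexes (0.0198). Sex differences near 0 also turned with median centring (Nkx6-2 -0.0082, Sox8 -0.045), quantile normalization (Nkx6-2 -0.087, Sox8 -0.042), a pseudocount of 20 (Sox8 -0.00028) and the replicate block (Nkx6-2 -0.15, Sox8 -0.013). The replicate block otherwise left ADPolB_veh minus WT_veh at 0.87 for Myrf, 0.97 for Nkx6-2 and 0.25 for Sox8. Median centring took 0.14 off every gene in ADPolB_veh minus WT_veh, leaving 0.75 for Myrf, 0.80 for Nkx6-2 and 0.10 for Sox8. Nkx6-2 is among the dimmest 25% of genes and had no value with these left out.

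Leaving out 1 mouse at a time, ADPolB_veh minus WT_veh ran from 0.68 (without WT_veh 6) to 1.08 (without WT_veh 8) for Myrf, from 0.74 to 1.12 for Nkx6-2 and from 0.18 to 0.30 for Sox8. The range crossed 0 in ADPolB_veh minus AD_veh for Sox8 (-0.16 to 0.089), in ADPolB_UA minus ADPolB_veh for Nkx6-2 (-0.33 to 0.068), in AD_UA minus WT_veh for Sox8 (-0.098 to 0.034), in ADPolB_UA minus AD_veh for Myrf (-0.36 to 0.0799) and Nkx6-2 (-0.049 to 0.36), in the interaction for Myrf (-0.20 to 0.21) and Nkx6-2 (-0.13 to 0.29), and between the sexes for Myrf (-0.075 to 0.10), Nkx6-2 (-0.053 to 0.13) and Sox8 (-0.036 to 0.076). For a member minus the myelin mean it crossed 0 for Myrf in ADPolB_veh minus AD_veh (-0.036 to 0.0702) and AD_veh minus WT_veh (-0.0048 to 0.061), for Nkx6-2 in the same pairs (-0.052 to 0.16 and -0.031 to 0.18), and for Sox8 in ADPolB_UA minus ADPolB_veh (-0.014 to 0.23) and AD_UA minus AD_veh (-0.12 to 0.11).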

Other observations

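Beyond the myelin proteins, 31 further genes known from oligodendrocytes were measured, among them enzymes of lipid synthesis and cytoskeletal proteins. In ADPolB_veh against WT_veh, 30 of these 31 had a higher mean, with a median difference of 0.63, against 0.09 over all genes, and in AD_veh against WT_veh 29 of 31 had, with a median of 0.44, against 0.04. In limma 0 of 31 passed in either comparison, and 18 and 2 were higher at an unadjusted p below 0.05, where 157 and 33 of all 760 genes were. With Urolithin A, 27 of 31 had a lower mean in AD_UA than in AD_veh (median -0.24, against -0.05 over all genes) and 28 of 31 in ADPolB_UA than in ADPolB_veh (median -0.11, against -0.01), with 0 passing. The AD_UA comparison again holds AD_veh 2, AD_UA 3 and AD_UA 8, the 3 mice of highest striatal markers. Their means over the 31 genes were 10.25 in AD_veh 2, 8.49 in AD_UA 3 and 8.46 in AD_UA 8. Of 5 measured genes of vessel walls, 5 had a higher mean in ADPolB_veh than in WT_veh (median 0.36, against 0.09 over all genes, of which 467 of 760 were higher), and 4 in AD_veh than in WT_veh (median 0.12, against 0.04). All 5 had a lower mean in ADPolB_UA than in ADPolB_veh (median -0.26, against -0.01 over all genes, of which 406 of 760 were lower), and 3 of 5 in AD_UA than in AD_veh (median -0.04, against -0.05). None of the 5 passed in these 4 comparisons in limma, and 2 were higher at an unadjusted p below 0.05 in ADPolB_veh against WT_veh.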
